A study of Mus musculus with 4 samples.

Results

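The 81 genes described here carry the names of proteins of the cytosolic ribosome, 49 of the large and 32 of the small subunit, among 24062 genes counted by RNA-seq in E13.5 mouse retinas. They are all rows of the count table with an *Rpl* or *Rps* symbol made of a number and at most 1 further letter (a, l or x), together with *Rplp0*, *Rplp1*, *Rplp2* and *Rpsa*. Rows with a symbol marked as a pseudogene were left out, as were fusion genes and copies with other symbols. The 2 wildtype (WT) and 2 *Nrf1* f/f;Six3-Cre (Nrf1-CKO) libraries came from pooled retinas of mice on a mixed C57BL/6 and 129 background. In Nrf1-CKO, Cre under *Six3* control deletes the floxed *Nrf1* gene, which encodes a transcription factor of nuclear genes for mitochondria, in retinal progenitor cells. Cells outside the reach of Cre keep the gene, and the labels do not say whether the 2 libraries of a genotype came from separate pools, so p-values measure the spread between these libraries.

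A ribosome is built from a large and a small subunit, each a scaffold of ribosomal RNA dressed with proteins that are present in 1 copy apart from the P1 and P2 proteins of the stalk. The small subunit reads the mRNA, and the large subunit holds the catalytic centre. Proliferating cells such as retinal progenitors spend much of their transcription and translation on making these proteins. Many of the mRNAs begin with a run of pyrimidines (the TOP start), through which their translation responds to mTOR signalling. The genes have spawned many processed pseudogenes, so their mRNAs are hard to assign to a single place in the genome.

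Depth was between 74577660 and 85933945 reads on genes in the 4 libraries. Alignments that were not unique took 54.6% to 58.0% of all entries and were not counted on any gene. *Nrf1* had 9052 and 7789 reads in WT and 8594 and 8284 in Nrf1-CKO, and a count over the whole gene cannot show the loss of single exons. Markers of other cells moved with the genotype. All 10 lens genes, all 6 microglial genes, 5 of 6 mesenchymal genes, 4 of 5 tested pigment epithelial genes and 3 of 5 endothelial genes were called higher (*Kdr* was lower), as were 3 of 7 tested erythroid genes. Counts scaled to the library size with TMM factors are given as CPM. The summed lens genes came to 146 and 423 CPM in WT and to 8685 and 3575 in Nrf1-CKO, and the microglial genes to 47.4 to 51.1 against 143 to 167. The pigment epithelial sum was 144 to 205 against 374 to 395, the mesenchymal sum 92.3 to 132 against 196 to 222, the erythroid sum 562 to 663 against 727 to 729, and the endothelial sum 248 to 255 against 236 to 247. *Rpe65* had 0 and 4 reads in WT and none in Nrf1-CKO, and *Hba-a1*, *Hbb-bt*, *Hbb-b1* and *Hbb-b2* were at 0 in every library. Of retinal ganglion cell genes 7 of 8, and of progenitor genes 1 of 8, were called lower. In such bulk libraries fewer cells of a type and less RNA per cell cannot be told apart, and the part of these cells in the values below was not tested.

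*Rps27*, which encodes a zinc finger protein of the small subunit, and its relatives show how closely such genes can resemble each other. The first 90 coding bases are shown from the GENCODE transcripts (GRCm38, all exonic), to set the counts of the 3 genes beside the sequence they share. *Rps27* lies on the minus strand of chromosome 3 from 90212522 to 90213651, *Rps27rt* on the minus strand of chromosome 9 from 114982366 to 114982739, and *Rps27l* on the plus strand of chromosome 9 from 66946086 to 66949516. Capitals mark bases that differ from *Rps27*.
Rps27: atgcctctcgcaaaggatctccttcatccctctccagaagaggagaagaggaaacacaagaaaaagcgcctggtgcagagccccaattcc
Rps27rt: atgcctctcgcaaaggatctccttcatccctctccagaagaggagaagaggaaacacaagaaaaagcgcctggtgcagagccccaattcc
Rps27l: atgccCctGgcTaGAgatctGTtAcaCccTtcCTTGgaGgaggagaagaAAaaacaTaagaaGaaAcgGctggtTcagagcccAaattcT
Over all 255 coding bases *Rps27* and *Rps27rt* were identical, and *Rps27l* differed from *Rps27* at 61. *Rps27rt* had 0 reads in every library. *Rps27* had 169 and 133 reads in WT and 251 and 198 in Nrf1-CKO. *Rps27l*, a paralog known as a target of p53, had 3431 and 2746 reads in WT and 3086 and 3294 in Nrf1-CKO. Its interval for the log2 fold change (Nrf1-CKO over WT, as in all that follows) was -0.18 to 0.21.

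Counted levels of the ribosomal protein genes ran from no read to 111881 reads a library. *Rpl4*, a large subunit protein that lines the exit tunnel, had most, with 111881 and 87883 reads in WT and 101727 and 102721 in Nrf1-CKO. *Rps3*, which sits at the mRNA entry and also has a role in DNA repair, had 97306 and 80530 against 86454 and 95168. Scaled to CPM, *Rpl4* had 1278 and 1185 in WT and 1224 and 1242 in Nrf1-CKO, and *Rps3* had 1111 and 1086 against 1041 and 1150. The Nrf1-CKO values thus lay between the WT values for *Rpl4* and on either side of them for *Rps3*. *Rpl41*, the smallest protein of the ribosome, and *Rpl8*, beside the catalytic centre, were also among the 5 highest, with means of 1015 ± 28.6 and 751 ± 28.2 CPM in WT (SD, n = 2). Of the 81 genes, 23 had a mean above 10000 reads a library, 29 a mean below 1000 and 8 a mean below 100, although a ribosome carries nearly all of these proteins in equal number. Among all genes of the table, 5 of the 81 were within the top 100 and 21 within the top 1000 by CPM.

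**Figure D1:**
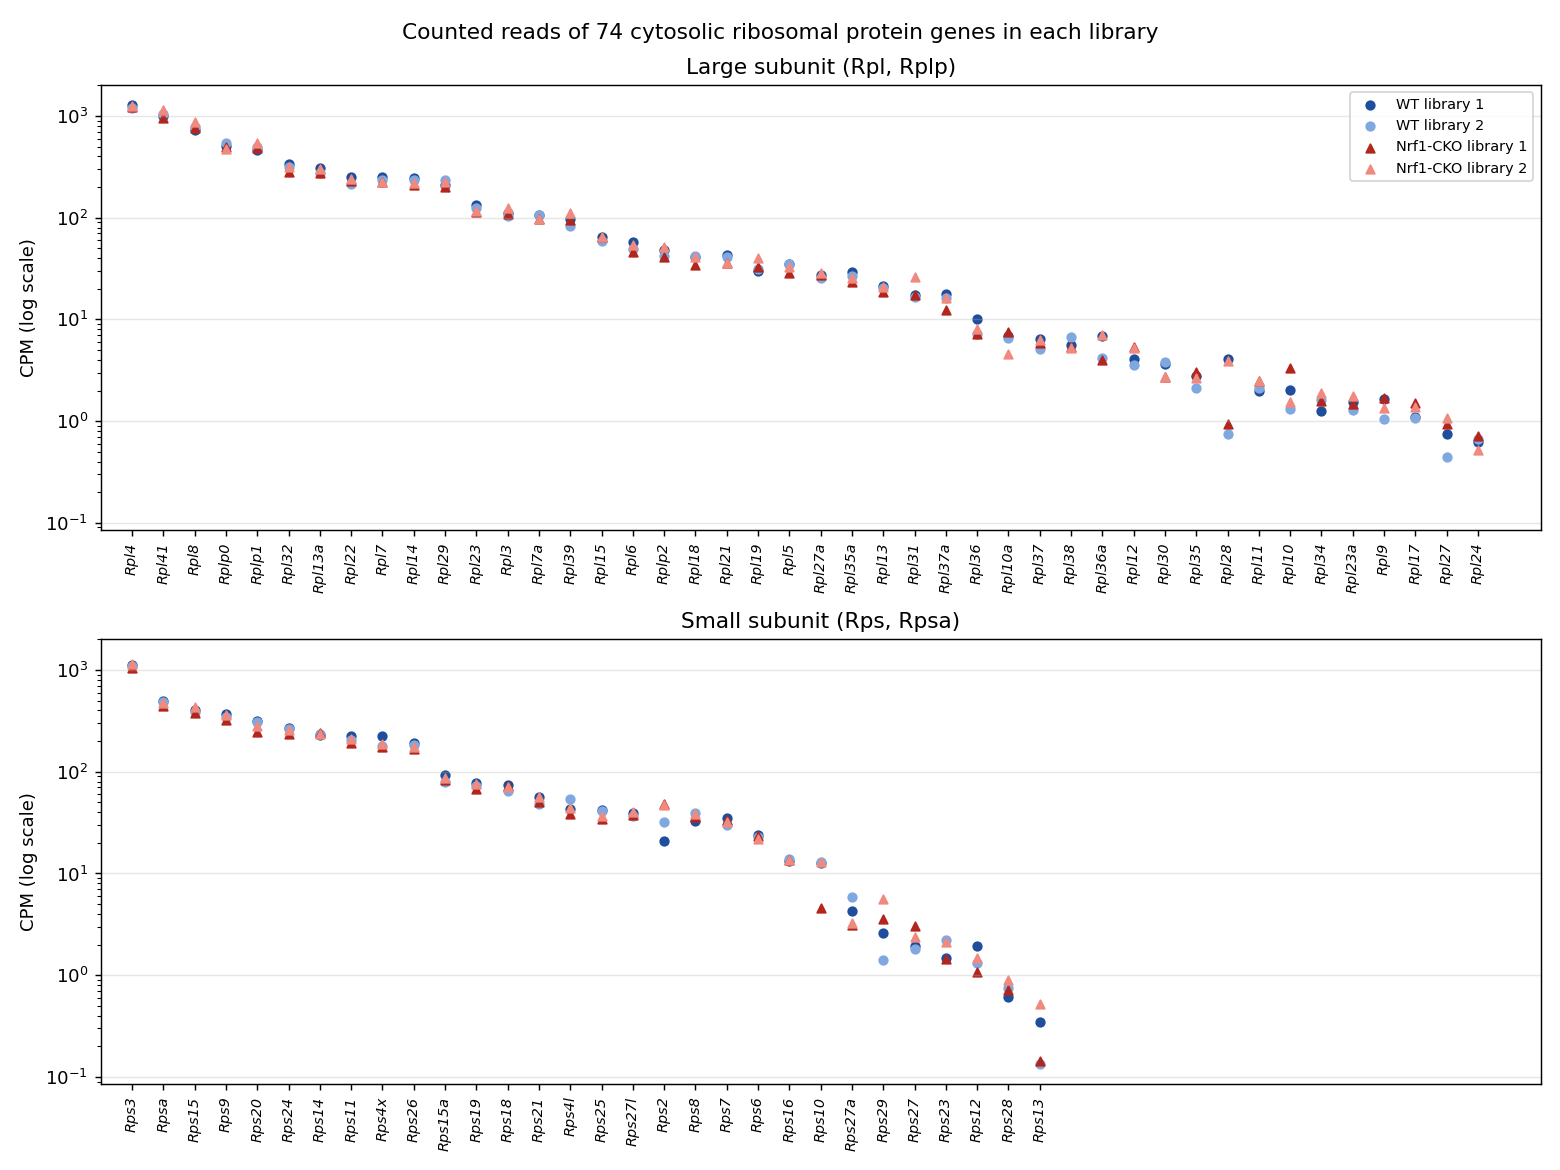
CPM (log scale) of 74 tested ribosomal protein genes in each library, large subunit above and small subunit below, ordered by mean level. The 2 WT libraries are circles and the 2 Nrf1-CKO libraries triangles, and for most genes the 4 symbols nearly coincide beside a range from *Rpl4* with 87883 to 111881 reads to *Rps13* with 10 to 43.

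The other 4 genes had too few reads for the test. *Rpl10l* and *Rpl3l*, retrogene and muscle paralogs of *Rpl10* and *Rpl3*, had 0 reads in all libraries, so that counting error alone allows up to 3 reads in any of them. *Rpl39l*, a paralog best known from testis, had 1 and 0 reads in WT and 4 and 0 in Nrf1-CKO. *Rpl26*, a ubiquitous large subunit protein known for binding p53 mRNA, had 0 and 0 reads in WT and 1 and 1 in Nrf1-CKO, and 46.3% of its coding windows were shared with other genes in the search described below. The lowest tested genes were of the same ubiquitous kind. *Rps13* had 30 and 10 reads in WT and 12 and 43 in Nrf1-CKO, *Rpl27* 65 and 33 against 77 and 89, and *Rpl24* 54 and 50 against 60 and 43. *Rps28* had 53 and 55 reads in WT and 60 and 74 in Nrf1-CKO, and *Rpl17* had 97 and 79 against 126 and 114.

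The level of a gene went with how much of its coding sequence other genes share. Each coding sequence was cut into all windows of 100 bases, the length of 1 read, and searched in the GENCODE transcripts of other genes. Of 79 protein-coding members whose sequence is long enough, 73 had at least 1 copy of 95% identity over 80% of the coding sequence, with a median of 5 copies and 57 for *Rpl21*. In 21 genes every window was shared, and their median was 6.62 CPM per kb of transcript. In the 9 genes with no shared window it was 134.6, the untested *Rpl3l*, *Rpl10l* and *Rpl39l* included. The tested genes without a shared window included *Rps3*, *Rpl22*, *Rpl32*, *Rps21* and *Rps27l*, from 76.4 (*Rps27l*) to 632 (*Rpl32*) CPM per kb in WT. Across 75 tested genes Spearman's rho between the shared share and the level per kb was -0.77, a description over genes that share the same 4 libraries. *Rpl34* stood apart, with 46.3% of windows shared and 110 and 121 reads in WT.

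**Figure D2:**
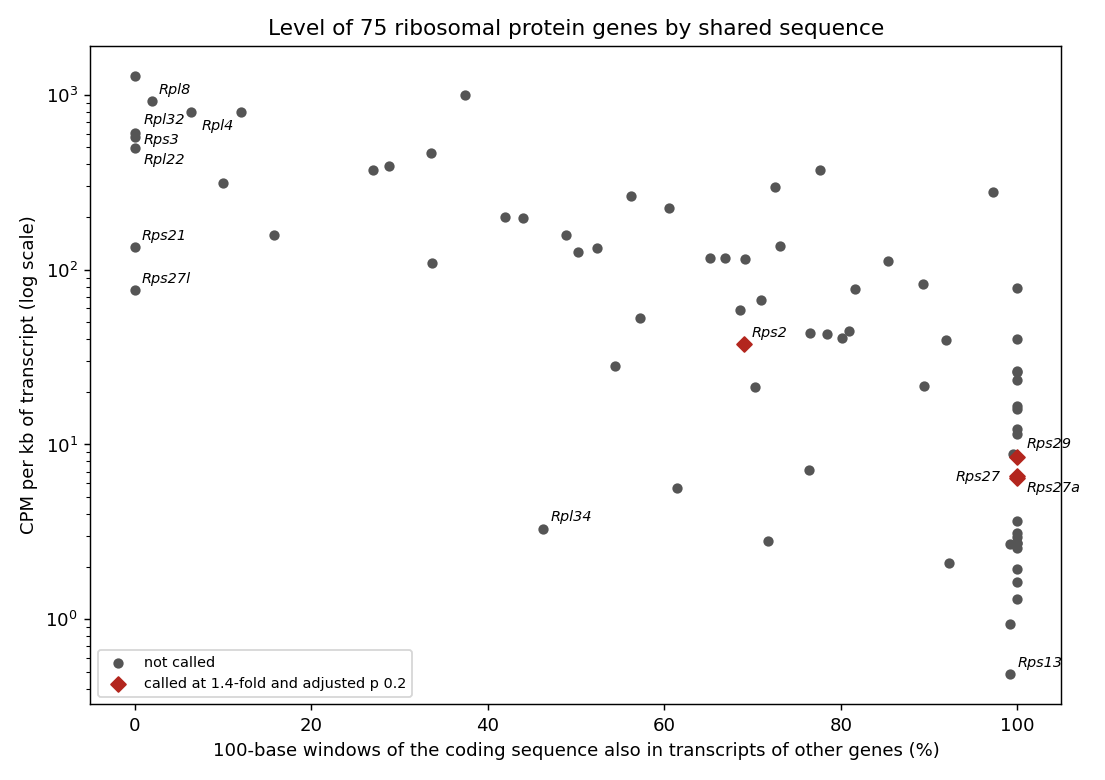
Level of 75 ribosomal protein genes (mean of both genotypes, CPM per kb of transcript, log scale) against the percentage of 100-base coding windows that also occur in transcripts of other genes. Red diamonds are the 4 genes called at 1.4-fold and adjusted p of 0.2 (3 of them with all windows shared), which lie below the genes with no shared window at the left edge.

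The comparison of the genotypes asked whether loss of *Nrf1* went with a change in the mRNAs of the ribosome. As a group the genes were level between the genotypes. The median log2 fold change of the 77 tested genes was -0.006, with 40 genes below and 37 above 0, beside a median of 0.0007 over all 15762 tested genes. The lower and upper quartiles were -0.15 and 0.10, against -0.19 and 0.26 over all genes. For 48 of the 77 (62.3%) the 95% interval lay within 1.4-fold in either direction, which was so for 46.6% of all tested genes. The genes took 1.25% and 1.18% of all reads on genes in WT and 1.12% and 1.22% in Nrf1-CKO, a mean of 1.21% ± 0.0467 against 1.17% ± 0.0725 (exact two-sided permutation p = 0.667, where 2 against 2 libraries cannot go below 0.3333).

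Few single genes were called. At 1.4-fold and an adjusted p of at most 0.2 in edgeR's quasi-likelihood test, *Rps27a* alone was lower, 1 of 77 genes beside 8.04% of all tested genes, and *Rps2*, *Rps29* and *Rps27* were higher, 3 of 77 beside 12.8%. At an adjusted p of at most 0.05 with no limit on fold, 1 gene was lower (1 of 77, beside 10.9% of all tested genes) and *Rps2* and *Rps29* were higher (2 of 77, beside 11.9%). Both Nrf1-CKO libraries lay beyond both WT libraries for 31 of 77 genes (40.3%), 20 lower and 11 higher, beside 62.5% of all tested genes. The called genes belong to the small subunit, with 0 of 45 tested large subunit genes called by either rule, but the large subunit gene *Rpl12* missed the fold limit narrowly (0.48) and was called higher under 5 other settings with all libraries, and the difference between the subunits was not tested. Without the marker genes of other tissues in the scaling, the counts at 1.4-fold were 1 lower and 3 higher as before.

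**Figure D3:**
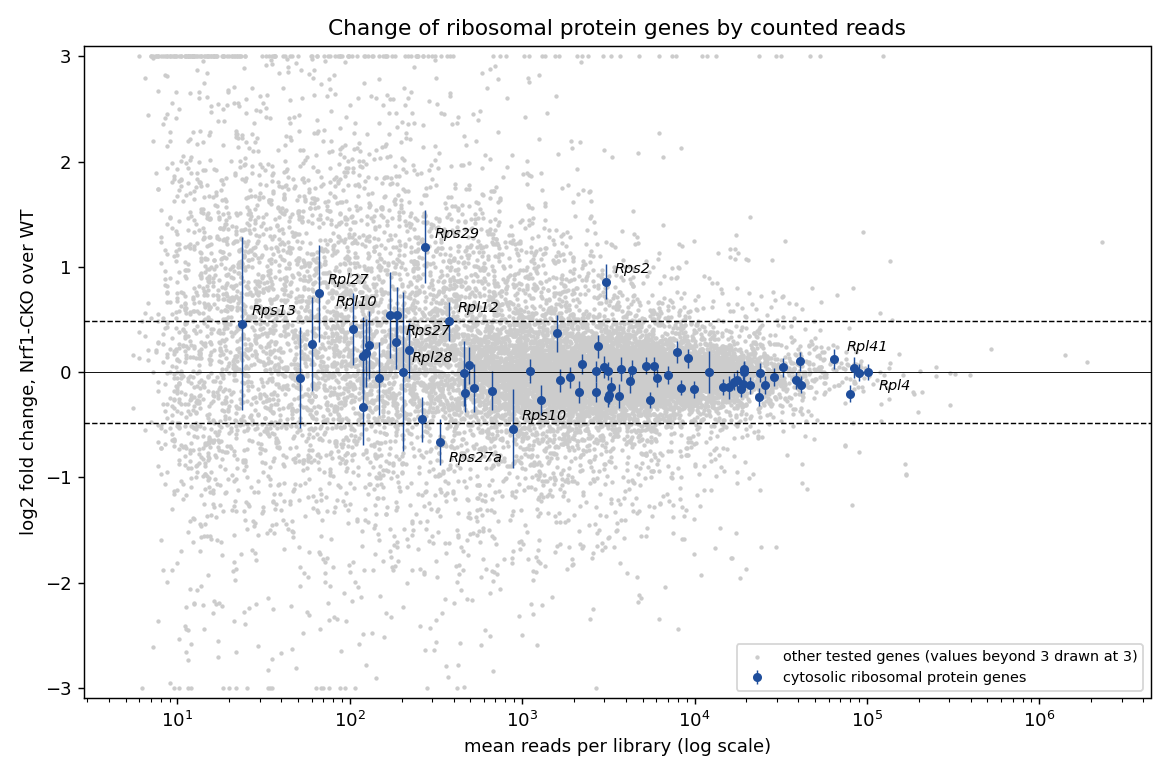
Log2 fold change of Nrf1-CKO over WT against the mean reads per library (log scale) for the ribosomal protein genes (blue, bars are standard errors) and all other tested genes (grey). Dashed lines mark 1.4-fold, and the 23 ribosomal protein genes above 10000 reads lie between -0.24 and 0.12.

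*Rps2*, a core protein at the mRNA entry of the small subunit (chromosome 17 of GRCm38, 24718116 to 24721929), had 1836 and 2381 reads in WT and 4039 and 3932 in Nrf1-CKO. The genotypes did not overlap, and the WT libraries differed from each other more than the Nrf1-CKO libraries did. Its level rose from 26.5 ± 7.87 to 48.1 ± 0.773 CPM, that is by 0.86 ± 0.17 on the log2 scale (estimate ± standard error, edgeR adjusted p = 0.0065). Of its coding windows 69.1% are shared, and 26 copies, all annotated as pseudogenes, were found. *Rps2* was called by both rules also without any single library.

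*Rps29*, a small zinc-binding protein (chromosome 12, 69157722 to 69159186), had 228 and 104 reads in WT and 293 and 469 in Nrf1-CKO. It rose by 1.19 ± 0.34 on the log2 scale (edgeR adjusted p = 0.0364), and both genotypes varied over 1.6-fold between their own libraries. On the authors' normalized values the difference was 0.51 on the log2 scale, and it was 1.72 without WT replicate 1. The call at an adjusted p of 0.05 was lost without WT replicate 2 and without Nrf1-CKO replicate 2, where the estimates were 0.82 and 0.81. *Rps27* rose by 0.54 ± 0.27 (edgeR adjusted p = 0.198), at the edge of the threshold. That call was lost with DESeq2, with scaling by library size, on the normalized values, where it was 0.20, and without any of WT replicate 1, WT replicate 2 or Nrf1-CKO replicate 1. Both genes have every coding window in common with other transcripts.

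*Rps27a*, which encodes ubiquitin fused to a small subunit protein (chromosome 11, 29545846 to 29548109), had 371 and 435 reads in WT and 259 and 269 in Nrf1-CKO. All WT values were above all Nrf1-CKO values. The estimate was -0.66 ± 0.22 on the log2 scale (edgeR adjusted p = 0.0627), from 5.05 ± 1.15 to 3.18 ± 0.0945 CPM. The call was lost without WT replicate 2, where the log2 fold change was -0.41, and on the normalized values, where it was -0.31.

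*Rpl12* and *Rpl30* came closest to a call at 1.4-fold in the large subunit. *Rpl12*, at the base of the stalk, had 355 and 263 reads in WT and 448 and 433 in Nrf1-CKO, a log2 fold change of 0.48 (adjusted p = 0.0968) beside the threshold of 0.485. It passed under 5 of the other settings with all libraries, among them DESeq2. *Rpl30* had 316 and 280 reads against 225 and 223, a log2 fold change of -0.45 (adjusted p = 0.18). *Rpl27*, at 0.75 (adjusted p = 0.292), and *Rpl10*, a late-joining protein at 0.54 (adjusted p = 0.389), had larger estimates on few reads, and *Rpl10* had 177 and 98 in WT and 277 and 128 in Nrf1-CKO. *Rps13*, *Rpl17* and *Rps12* also lay among the extremes, at 0.46, 0.41 and -0.34, and none passed the test. The estimate for *Rps12* was -0.02 without WT replicate 1, and that for *Rpl27* lay between 0.44 and 1.17 with a library left out. Toward the lower end with well-counted reads were *Rps20* (-0.24, adjusted p = 0.0882), *Rps25* (-0.24, adjusted p = 0.0733), a protein needed by some viral and cellular internal entry sites, and *Rpl37a* (-0.26, adjusted p = 0.236).

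The best-counted genes set the narrowest limits. All 23 genes above 10000 reads had 95% intervals within 1.4-fold, and none was called, with log2 fold changes from -0.24 to 0.12 and a median of -0.07. The intervals were -0.18 to 0.18 for *Rpl4*, -0.19 to 0.18 for *Rps3*, -0.18 to 0.26 for *Rpl41* and -0.09 to 0.34 for *Rpl8*. *Rpl22*, which is dispensable for translation in many cells, had an interval of -0.20 to 0.21, *Rpl32* of -0.32 to 0.08 and *Rps21* of -0.20 to 0.24.

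The acidic stalk recruits the elongation factors. *Rplp0*, its base, had 44847 and 40108 reads in WT and 41044 and 39208 in Nrf1-CKO, a log2 fold change of -0.12 (95% interval -0.30 to 0.06). *Rplp1* had 40575 and 36716 against 40307 and 44975, with an interval of -0.10 to 0.30. *Rplp2* had 4199 and 3151 against 3421 and 4245, with an interval of -0.23 to 0.29. Per kb of transcript *Rplp1* was at 960 and *Rplp2* at 107 CPM in WT, although the P1 and P2 proteins are found in the stalk in equal number. *Rpsa*, which is also known as a laminin receptor, had 42974 and 35585 reads in WT and 36862 and 39422 in Nrf1-CKO (interval -0.26 to 0.11).

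The following genes, named for known roles of their proteins in signalling, disease or development, were not called. *Rpl5* and *Rpl11* bind Mdm2 when ribosome assembly fails and so stabilise p53. *Rpl5* had 3071 and 2575 reads in WT and 2369 and 2690 in Nrf1-CKO (log2 fold change -0.19, adjusted p = 0.19), and *Rpl11* had 174 and 156 against 207 and 206 (0.28, adjusted p = 0.488). *Rps6*, the substrate of S6 kinase, had 2103 and 1682 against 1935 and 1811 reads (interval -0.27 to 0.18). *Rps14* and *Rps19*, both disease genes of red cell formation, had intervals of -0.14 to 0.20 and -0.25 to 0.13. *Rpl38* and *Rpl10a*, for which selective translation of mRNAs has been described in embryos, had 486 and 496 against 447 and 434 and 601 and 491 against 626 and 382 reads, with intervals of -0.60 to 0.19 and -0.67 to 0.37.

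The counterparts of tissue-specific paralogs were counted in all libraries. *Rpl3* had 9673 and 7635 reads in WT and 9018 and 10337 in Nrf1-CKO (interval -0.08 to 0.34), and *Rps4x*, X-linked, had 19639 and 13236 against 14684 and 15502 (interval -0.39 to 0.10). *Rps4l*, which the annotation lists as a transcribed processed pseudogene on chromosome 6 (148354656 to 148355598), had 3782 and 3974 reads in WT and 3200 and 3654 in Nrf1-CKO, with 2.03% of its windows shared. Its log2 fold change was -0.23 (adjusted p = 0.21), and it was -0.06 without WT replicate 2 and -0.37 without WT replicate 1. Ribosomal protein genes outside the naming rule showed no call either. *Fau*, a fusion of a ubiquitin-like protein with Rps30, had 686 and 670 reads in WT and 631 and 677 in Nrf1-CKO. *Rpl22l1*, the paralog of *Rpl22*, had 1454 and 881 against 1056 and 1201 reads. *Rpl36al* had 3315 and 2627 against 2618 and 2815 (log2 fold change -0.16, adjusted p = 0.243), and *Rps3a1* 15108 and 10655 against 13037 and 11449 (-0.10, adjusted p = 0.564).

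Several ribosomal protein genes differed more between libraries of 1 genotype than between genotypes. The following examples were chosen after their values were seen. *Rpl28* had 354 and 55 reads in WT and 78 and 322 in Nrf1-CKO, a 5.45-fold and a 4.15-fold gap within the genotypes. *Rpl36a* had 606 and 310 against 331 and 582. In both of these, WT replicate 1 and Nrf1-CKO replicate 2 were high and the other two libraries low. *Rps10* had 1106 and 960 reads in WT and 378 and 1081 in Nrf1-CKO, so its estimate of -0.54 ± 0.37 (edgeR adjusted p = 0.353) came from Nrf1-CKO replicate 1 and was 0.03 without it. Of the 77 genes, 55 were higher in WT replicate 1 than in WT replicate 2, 58 were higher in Nrf1-CKO replicate 2 than in Nrf1-CKO replicate 1, and 44 were both (57.1%), which held for 22.6% of all tested genes. In 12 of the 77 genes the libraries of a genotype differed by over 1.5-fold, beside 17.8% of all tested genes. Among the classes by shared sequence these were 6 of 21 genes with all windows shared, 6 of 34 with over 50% and none of the 20 tested genes with 50% or less.

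**Figure D4:**
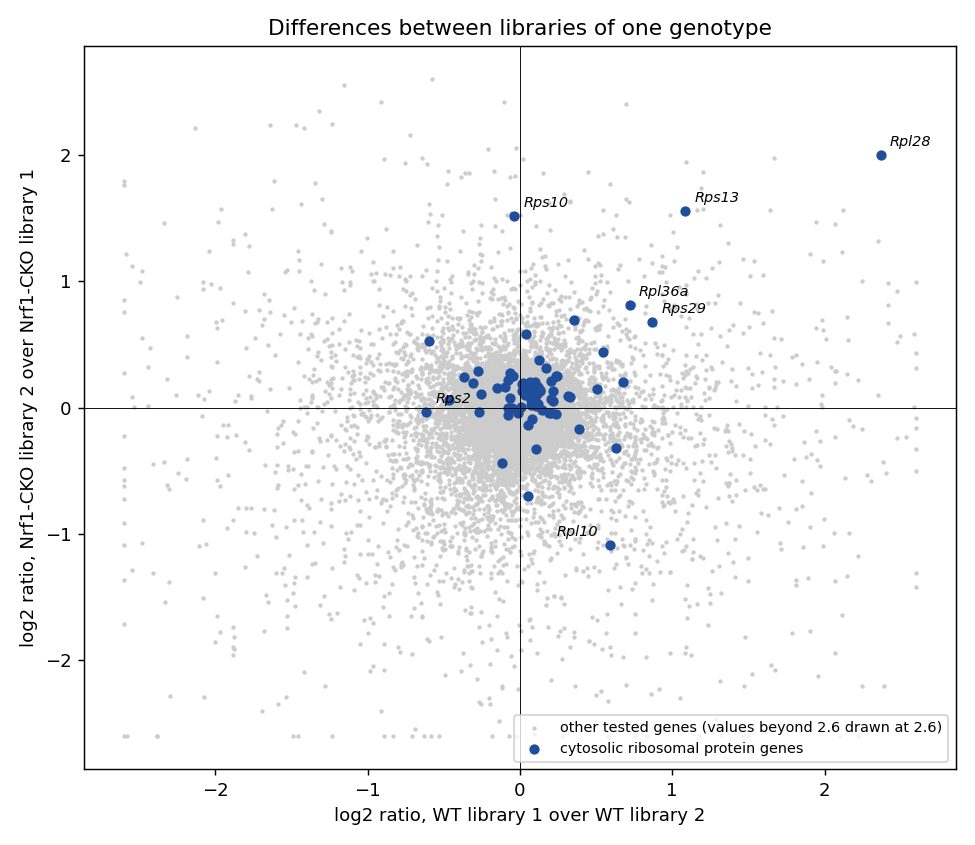
Log2 ratio of WT library 1 to WT library 2 (horizontal) against that of Nrf1-CKO library 2 to Nrf1-CKO library 1 (vertical), from CPM plus 0.05, for ribosomal protein genes (blue) and all other tested genes (grey). Of 77 blue points 44 lie in the upper right part, with *Rpl28* farthest out.

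Genes that work with the ribosome were compared from lists. Of 9 tested elongation factor genes, 1 was called lower at 1.4-fold and none higher, beside 8.04% and 12.8% of all tested genes. The called gene was *Eef1a2*, the form of the tRNA-carrying factor used by neurons, with 1159 and 896 reads in WT and 249 and 134 in Nrf1-CKO. Its log2 fold change was -2.45 (edgeR adjusted p = 0.000315). In the same libraries 7 of 8 ganglion cell markers were also called lower, and a link between these changes was not tested. *Eef1e1*, better known as a scaffold of the tRNA synthetase complex, had a smaller change of -0.28 (adjusted p = 0.0459). The list's median was -0.01. Of 35 tested initiation factor genes none passed 1.4-fold, with a median of 0.01. At an adjusted p of 0.05, *Eif1b* (-0.36, adjusted p = 0.0124) and the helicase *Eif4a1* (-0.28, adjusted p = 0.0306) were lower. *Pabpc1*, the poly(A)-binding protein whose mRNA is itself a TOP mRNA, was higher (0.45, adjusted p = 0.0336). These were 2 lower and 1 higher of 35, beside 10.9% and 11.9% of all tested genes. The estimate for *Pabpc1* was 0.24 without Nrf1-CKO replicate 1 and 0.63 without Nrf1-CKO replicate 2.

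The 6 genes of proteins that bind ribosomes or nascent chains, among them *Gnb2l1* (the scaffold Rack1) with 114548 and 91908 reads in WT and 100193 and 106256 in Nrf1-CKO, had a median of 0.02 and no call. In the list of 12 regulators of TOP mRNAs and mTOR signalling none passed 1.4-fold in the reported fit, and the median was 0.08. At an adjusted p of 0.05, *Rps6kb1*, the kinase of Rps6, was lower, with 6455 and 5257 reads in WT and 4678 and 3962 in Nrf1-CKO (log2 fold change -0.47, edgeR adjusted p = 0.00677). *Eif4ebp1*, an inhibitor of cap-dependent initiation and mTOR substrate, was higher, with 1570 and 1491 against 2052 and 2265 reads (0.45, edgeR adjusted p = 0.0174). These were 1 lower and 1 higher of 12, beside 10.9% and 11.9% of all tested genes. With a library left out, the estimate lay between -0.59 and -0.36 for *Rps6kb1* and between 0.38 and 0.54 for *Eif4ebp1*. The 1.4-fold limit is 0.485 on this scale.

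Values for a pair of other large protein complexes stand beside a median of -0.006 for the cytosolic ribosome genes, 40 of 77 of them below 0. The 77 genes of the mitochondrial ribosome had their median at -0.08 on the log2 scale, with 58 genes below 0. At 1.4-fold 1 of 77 was called lower and none higher, beside 8.04% and 12.8% of all tested genes. At an adjusted p of 0.05 there were 4 lower and 1 higher, beside 10.9% and 11.9%. Of 38 tested proteasome subunit genes the median was -0.09, with 2 called higher and none lower at 1.4-fold. At an adjusted p of 0.05, 1 of them was higher and none lower. Intervals lay within 1.4-fold for 79.2% of the mitochondrial ribosome genes and 86.8% of the proteasome genes, against 62.3% of the cytosolic ribosome genes. Many cytosolic ribosome genes had few counted reads, with 29 of 81 at a mean below 1000. For the 52 tested genes above 1000 reads the median was -0.05, and 47 intervals lay within 1.4-fold. For the 23 above 10000 reads the median was -0.07, and all 23 intervals did. The differences between the complexes were not tested.

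Promoters were read for 60 of the 81 genes, those present in the RefSeq table of GRCm38.p6, from 250 bases before to 50 bases after the start. The letters CTTTC within 10 bases of the start on the sense strand, as in a TOP start, were present in 15 of the 60 genes (25%) in 3.35% of tested genes with a promoter and in 3.68% of all genes of the table. Examples are shown on 30 bases around the start, which is base 16 of each, for genes described above. Only the first CTTTC within 10 bases of the start is in capitals. In *Rps27* it begins 8 bases before the start, and a further CTTTC just after the start is in lower case.
Rplp2, chr7:141447636-141447665, plus strand: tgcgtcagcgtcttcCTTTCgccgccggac
Rpl38, chr11:114668565-114668594, plus strand: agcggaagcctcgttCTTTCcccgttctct
Rpl28, chr7:4792950-4792979, plus strand: ccgcctctcgtgtctctCTTTCcgtctccg
Rps10, chr17:27635230-27635259, minus strand: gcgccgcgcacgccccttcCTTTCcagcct
Rps27, chr3:90213634-90213663, minus strand: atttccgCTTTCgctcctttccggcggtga
The 14 tested genes with these letters had their median at -0.0002 on the log2 scale, and the 42 without them at -0.0009. The Ets and GABP letters CCGGAAG (both strands) were in 25 of 60 genes (41.7%) in 17.5% of tested genes and in 9.93% of all genes. The YY1 letters AAGAT followed by GGC (both strands) and TATAAA (sense strand) were each in 5 of 60 (8.33%), against 4.58% and 5.58% of tested genes and 3.19% and 9.77% of all genes. No match overlapped a match of another motif.

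The letters of the NRF1 motif, GCGCA, any base and GCGC on either strand, were in 5 of 60 genes (8.33%), in 10.1% of tested genes and in 5.19% of all genes of the table. They are shown in capitals in windows of 30 bases, because the deleted gene encodes the factor that the motif is named for.
Rpl37a, chr1:72711257-72711286, plus strand, from base 8 after the start: gtctaaaaccGCGCATGCGCattgcgtccc
Rps15, chr10:80292428-80292457, plus strand, from base 8: cgcgataactGCGCAAGCGCagcccgtact
Rps16, chr7:28350693-28350722, plus strand, from base 15: agcactcaatGCGCCTGCGCagaccctgaa
Rpl10a, chr17:28328551-28328580, plus strand, from 4 bases before the start: ctctatttgaGCGCATGCGCaaagcgctct
Rpsa, chr9:120127667-120127696, plus strand, from 89 bases before: cactgaatctGCGCGTGCGCcagaggcttt
*Rpsa* held a further match 154 bases before its start. The 5 genes had log2 fold changes from -0.26 (*Rpl37a*) to 0.05 (*Rps15*), and none was called with all libraries. Their median was -0.08, beside 0.002 for the 51 tested genes with a promoter and no match. With a library left out, the estimate for *Rpl10a* lay between -0.55 and 0.16. The estimate for *Rpl37a* was -0.08 without Nrf1-CKO replicate 1 and -0.46 without Nrf1-CKO replicate 2. *Rps15*, the only one of them with few shared windows (12.1%) and many reads, had 35170 and 28443 reads in WT and 31342 and 35870 in Nrf1-CKO. *Rps16* had 1167 and 1024 against 1137 and 1130 (95% interval -0.25 to 0.27). A match of letters is a description of the window and not a site of binding.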

How the data were processed

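RNA-seq was done on 2 WT and 2 Nrf1-CKO libraries of pooled E13.5 retinas (100-base paired-end reads). The authors aligned reads to mm10 with TopHat, counted them per gene with HTSeq and deposited raw counts, and log2 normalized values whose making is not given in the sources used here. Summary rows that name no gene held 74.0% to 75.0% of entries and were left out. The annotation release and strand setting are not given in the sources used here. Counts were filtered with filterByExpr (minimum 10) and tested with edgeR 4.0.16 (R 4.3.3, TMM factors, quasi-likelihood test, Benjamini-Hochberg). Each standard error is the estimate divided by the root of its F value, and 95% intervals use the moderated degrees of freedom. Calls need 1.4-fold and an adjusted p of 0.2, the study's thresholds, or an adjusted p of 0.05. In simulated counts for this comparison, 75.9% of 199 changed genes among 15602 were recovered, 86.7% of the 143 that changed at least 2-fold. Copies were searched with blastn 2.17.0 in GENCODE vM21 transcripts, not the genome. Named genes were the 8 lowest and 8 highest log2 fold changes, called genes, the 5 highest and 5 lowest levels, untested genes, paralogs and genes chosen for their roles. The members and lists were chosen with earlier results of these data known. Alternatives were DESeq2 1.42.0, limma 3.58.1 on the normalized values and those in the closing section. The results for 4 genes are not reported here.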

Additional observations from a re-analysis of the deposited data

Results flagged for a closer look

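*Rps15a-ps4*, a row that the comparison of ribosomal protein genes did not use, was flagged because both Nrf1-CKO libraries lay above both WT libraries. It had 385 and 315 reads in WT and 502 and 510 in Nrf1-CKO, with a mean of 6.10 CPM in Nrf1-CKO. The estimate was 0.50 ± 0.17 on the log2 scale (± standard error, edgeR adjusted p = 0.0658). That passed the rule of 1.4-fold and an adjusted p of 0.2, by which 12.8% of all tested genes were called higher. Genotypes did not overlap for 62.5% of all tested genes. With 2 libraries a genotype no library could be tested as an outlier.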

How the results depend on the processing

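Members called lower at 1.4-fold numbered 0 on the normalized values, with glmTreat and with an adjusted p of 0.05, 2 in the replicate block fit, and 0 to 3 with a library left out. Those called higher numbered 2 to 4 with all libraries and 2 to 5 with one left out. Members lower at an adjusted p of 0.05 numbered 2 with scaling by library size and with the exact test, 3 with DESeq2, 0 with upper quartiles and with the length and GC trend removed, and 0 to 5 with a library left out. Those higher numbered 2 with all libraries and 1 to 5 with one left out. The median of members on the log2 scale lay between -0.027 and 0.034 with all libraries and between -0.091 and 0.033 with one left out. The difference in the share of reads lay between -0.096 and 0.0061 percentage points with a library left out. Replicate numbers did not pair the libraries: the differences between replicates correlated at -0.0025 over all tested genes and at -0.48 over members, and the block ended the call of *Rps27* and added *Rps10* and *Rpl12*. Over the other settings and 55 named genes, 745 estimates kept direction and side of the threshold, 21 gained and 9 lost a call, and 49 changed sign. A genotype left with 1 library was assumed to vary like the other. No gene whose sign turned was called with all libraries in the reported fit, and 1 of the 49, *Rpl28*, was called lower at -1.36 without Nrf1-CKO replicate 2. Scaling by library size gave -0.018 for *Rpl4*, -0.0062 for *Rps27l*, -0.016 for *Rpl22*, -0.026 for *Rpl28*, -0.0082 for *Rps16* and -0.0011 for *Rps21*. Upper quartiles gave 0.036 for *Rps3*, 0.026 for *Rpl36a* and 0.0071 for *Gnb2l1*. Removing the trend gave 0.034 for *Rps3*, 0.0087 for *Rps6*, -0.0045 for *Rpl28* and 0.041 for *Rpl36a*. *Rps3* was 0.0011 with DESeq2 and 0.0021 with 10 counts required in every library. The causes were not tested. With a library left out, the range crossed 0 for *Rpl4* (-0.048 to 0.061), *Rps3* (-0.080 to 0.067), *Rpl41* (-0.091 to 0.16), *Rplp2* (-0.14 to 0.18), *Rps27l* (-0.039 to 0.064), *Rpl22* (-0.095 to 0.12), *Rps4x* (-0.30 to 0.033), *Rpl10* (-0.11 to 0.99), *Rps19* (-0.14 to 0.017), *Rps10* (-1.49 to 0.032), *Rpl28* (-1.36 to 1.71), *Rps13* (-0.73 to 1.30), *Rpl10a* (-0.55 to 0.16), *Rps15* (-0.059 to 0.14), *Rps16* (-0.010 to 0.041), *Rpl36a* (-0.48 to 0.40), *Fau* (-0.19 to 0.014), *Rpl22l1* (-0.28 to 0.20), *Rps3a1* (-0.22 to 0.043), *Gnb2l1* (-0.080 to 0.013), *Rpl24* (-0.31 to 0.16) and *Rps21* (-0.080 to 0.14). The estimate kept its sign and moved by over 1.5 times, with no call at 1.4-fold, for *Rpl3* (0.023 to 0.23), *Rpl5* (-0.29 to -0.10), *Rpl8* (0.0057 to 0.23), *Rpl27* (0.44 to 1.17), *Rpl32* (-0.21 to -0.042), *Rpl36al* (-0.22 to -0.11), *Rpl37a* (-0.46 to -0.084), *Rpl38* (-0.33 to -0.059), *Rplp0* (-0.16 to -0.078), *Rplp1* (0.016 to 0.18), *Rps4l* (-0.37 to -0.059), *Rps6* (-0.092 to -0.0020), *Rps12* (-0.58 to -0.021), *Rps14* (0.013 to 0.049), *Rps20* (-0.34 to -0.14), *Rps28* (0.10 to 0.42) and *Rpsa* (-0.13 to -0.026).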

Other observations

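Rows named as pseudogenes of ribosomal protein genes were outside the comparison. *Rpl14-ps1* had 36042 and 28622 reads in WT and 30960 and 31852 in Nrf1-CKO, with a log2 fold change of -0.07 (adjusted p = 0.568 from edgeR). *Rps15a-ps6* had 1072 and 923 against 898 and 971 reads, and *Rps19-ps3* 63 and 98 against 91 and 101. *Rpl31-ps12* had 2 and 0 reads in WT and 0 and 4 in Nrf1-CKO, and *Rpl34-ps1* and *Rplp2-ps1* had none in any library.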
